A study of Mus musculus with 15 samples.

Results

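Genes of the cell cycle and of DNA replication were examined for 3 histone marks in mouse liver: trimethylation of histone H3 at lysine 4 (H3K4me3), lysine 27 (H3K27me3) and lysine 9 (H3K9me3). The set was a named list of 47 genes, chosen by symbol and not by a measured value, though with earlier results of these data known. All 47 were found among 21887 protein-coding genes of the gene table. The list holds cyclins and their kinases, factors that license replication origins, enzymes of the replication fork and of nucleotide supply, CDC25 phosphatases, checkpoint and mitotic kinases, spindle and mitotic exit genes, and transcription factors of the cycle.

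Liver came from C57Bl/6 mice aged 8 to 12 weeks that were wild type (WT) or Uhrf1hepKO (KO), a knockout of Uhrf1 in hepatocytes by its name, and the sources used here do not name the driver of the deletion. Uhrf1 encodes a protein that helps copy DNA methylation to newly made DNA. H3K4me3 was profiled in 2 WT and 2 KO libraries at baseline, in which the replicate 2 libraries are labelled round 2 and the replicate 1 libraries carry no round label. H3K27me3 was profiled at baseline in 1 KO library and in 2 WT libraries, WT replicate 1 and the 0 h library of round 3, and in WT liver at 30, 40 and 96 h of regeneration with 1 library each. H3K9me3 was profiled in 1 WT and 1 KO library of round 2. Chromatin was cut to mononucleosomes with micrococcal nuclease, and the data are the authors' lists of enriched regions per library. Nothing in the sources ties the replicates to different animals, so the spread between them may be technical. The H3K4me3 libraries are called WT1, KO1, WT2 and KO2 below, by genotype and replicate, and sets of 4 H3K4me3 values are in that order.

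Progress through the cycle is driven by cyclin-dependent kinases, each switched on by a cyclin partner. D cyclins with Cdk4 or Cdk6 free the E2F factors that turn on genes of S phase. The DREAM complex and the Mybl2 and Foxm1 factors govern genes of G2 and mitosis through a short element called the CHR. Promoters of such genes often hold CCAAT boxes as well. Adult hepatocytes are mostly outside the cycle and enter it again when liver mass is lost, so these genes are a classic readout of liver regeneration. H3K4me3 is found at promoters that are active or ready for use, H3K27me3 is placed by the Polycomb machinery at silenced genes, and H3K9me3 is typical of heterochromatin.

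The bases before the start used are shown first for 9 of the genes. The position of the peaks described below is given relative to that start. Each covers the 200 bases before the start, 5′ to 3′ along the gene, from RefSeq on GRCm38.p6. The promoter table held 39 of the 47 genes. Capitals mark E2F-type words (TTTGGCGC, TTTCCCGC, TTTGCCGC or TTTCGCGC), CHR-type words (TTTGAA or TTCGAA) and CCAAT, each on either strand, and words may overlap. Cdk1 (chr10:69352913-69353112, minus strand) is shown for holding all 3 kinds, Ccnb1 (chr13:100786487-100786686, minus strand) and Ccnb2 (chr9:70421555-70421754, minus strand) as its cyclin partners, and Mcm3 (chr1:20820313-20820512, minus strand) and Mcm5 (chr8:75109309-75109508, plus strand) for the same gap between peaks in all 4 libraries. Bub1 (chr2:127831860-127832059, minus strand) and E2f7 (chr10:110745239-110745438, plus strand) are the genes with an H3K27me3 island at the start. E2f1 (chr2:154569427-154569626, minus strand) and Mybl2 (chr2:163054435-163054634, plus strand) hold none of these words in the bases shown. Mybl2 has the lowest median length of H3K4me3 peaks over the 4 libraries. The start used for E2f1 lies inside the gene bounds, whose 5′ end is chr2:154569892. Its printed bases are thus within the gene, and those upstream of that bound are not shown.
Cdk1: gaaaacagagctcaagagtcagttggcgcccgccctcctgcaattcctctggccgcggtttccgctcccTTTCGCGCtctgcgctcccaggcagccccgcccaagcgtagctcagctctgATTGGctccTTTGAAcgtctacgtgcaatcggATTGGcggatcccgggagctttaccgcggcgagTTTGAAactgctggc
Ccnb1: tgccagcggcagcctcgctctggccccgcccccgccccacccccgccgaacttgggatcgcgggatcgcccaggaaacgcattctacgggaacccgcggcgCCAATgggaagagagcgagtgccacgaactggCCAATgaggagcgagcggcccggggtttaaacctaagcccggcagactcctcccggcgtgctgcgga
Ccnb2: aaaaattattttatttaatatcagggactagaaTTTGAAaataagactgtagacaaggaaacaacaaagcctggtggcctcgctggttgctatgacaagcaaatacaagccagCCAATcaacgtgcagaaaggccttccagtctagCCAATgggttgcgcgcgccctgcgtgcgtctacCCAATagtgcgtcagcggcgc
Mcm3: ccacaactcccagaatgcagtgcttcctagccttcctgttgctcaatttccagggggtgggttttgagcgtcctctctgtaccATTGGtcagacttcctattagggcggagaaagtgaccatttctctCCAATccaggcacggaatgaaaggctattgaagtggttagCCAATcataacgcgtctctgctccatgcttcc
Mcm5: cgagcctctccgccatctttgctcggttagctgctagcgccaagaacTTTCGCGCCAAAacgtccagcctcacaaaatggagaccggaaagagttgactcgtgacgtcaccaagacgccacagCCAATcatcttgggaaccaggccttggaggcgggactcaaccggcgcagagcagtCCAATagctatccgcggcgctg
Bub1: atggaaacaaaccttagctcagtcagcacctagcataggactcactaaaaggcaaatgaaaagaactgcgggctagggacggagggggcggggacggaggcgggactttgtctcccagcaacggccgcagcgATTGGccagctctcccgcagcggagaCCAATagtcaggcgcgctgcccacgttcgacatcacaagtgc
E2f7: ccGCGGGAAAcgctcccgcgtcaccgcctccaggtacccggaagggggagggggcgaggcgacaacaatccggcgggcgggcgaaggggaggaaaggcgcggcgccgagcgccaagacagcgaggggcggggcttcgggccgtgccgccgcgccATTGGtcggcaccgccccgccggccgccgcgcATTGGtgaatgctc
E2f1: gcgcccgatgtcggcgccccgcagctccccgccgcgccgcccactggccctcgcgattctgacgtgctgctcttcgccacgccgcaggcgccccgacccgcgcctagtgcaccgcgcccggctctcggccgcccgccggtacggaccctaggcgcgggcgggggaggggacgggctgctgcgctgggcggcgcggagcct
Mybl2: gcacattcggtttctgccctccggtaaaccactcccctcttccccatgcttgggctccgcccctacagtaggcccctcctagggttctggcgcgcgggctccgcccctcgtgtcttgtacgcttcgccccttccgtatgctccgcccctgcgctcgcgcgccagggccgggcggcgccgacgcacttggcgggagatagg

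An E2F-type word lay in the promoter, here 250 bases before to 50 after the start, of 11 of the 39 genes (28.2%), against 4.91% of the 9974 genes in the promoter table that had H3K4me3 in all 4 libraries and 3.29% of all 17492 genes in that table. A CHR-type word lay in 18 genes (46.2%), against 16.6% and 20.2%. CCAAT lay in 28 genes (71.8%), against 44.0% and 42.3%, and 19 genes held at least 2 copies. The TATA box word (TATAAA) was found in 1 gene, Cdk6, at position -103 from the start. An NRF1-type word (GCATGCGC) was found in 1 gene, Cdt1. These shares are 2.56% each and rest on 1 gene each, against 8.90% and 6.08% of the genes marked in all 4 libraries. The promoters were rich in CpG, with a median of 25 CpG in the 300 bases against 21 over the genes marked in all 4 libraries and 13 over all genes. A gene on the other strand started within 1 kb upstream of Mcm7 (Ap4m1, 138 bp from the nearer of the starts of Mcm7) and of Aurka (Cstf1, 433 bp), which is 5.13% of the 39 genes against 14.5% of the marked genes.

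**Figure D1:**
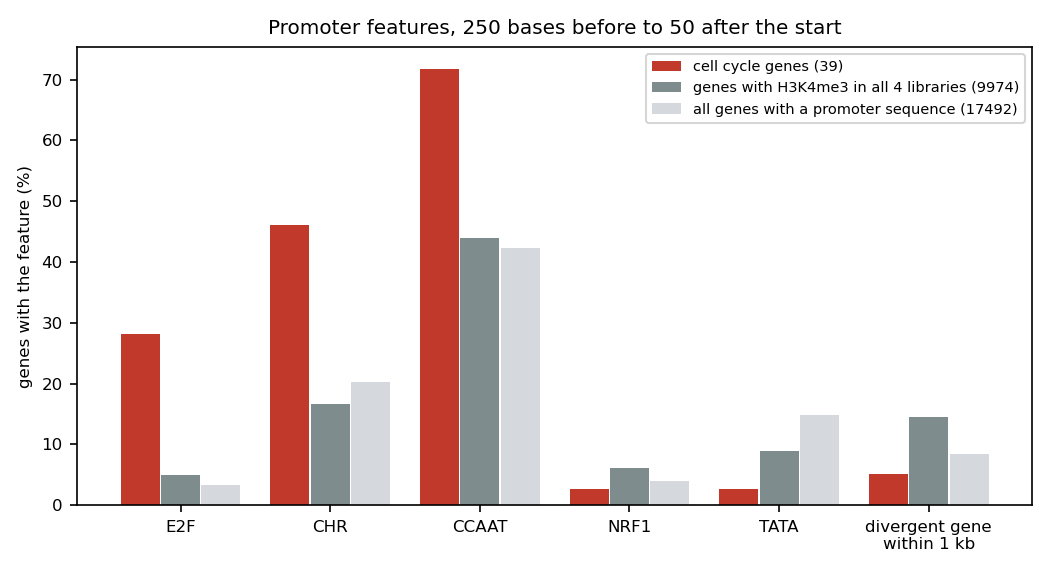
Bars give the percent of genes with each promoter feature among 39 cell cycle genes, 9974 genes with H3K4me3 in all 4 libraries and all 17492 genes with a promoter sequence. E2F-type, CHR-type and CCAAT words are more frequent in the cell cycle genes (28.2%, 46.2% and 71.8%) than in either comparison set. TATA box words and divergent genes have lower shares (2.56% and 5.13%), which rest on 1 and 2 of the 39 genes. Of all genes, 8.48% have a divergent gene.

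All 12 lists differed in size. H3K4me3 peaks numbered 72177, 73431, 25714 and 27006, and covered 45.5, 44.9, 21.4 and 25.3 Mb. The antibody tag of both replicate 2 libraries names H3K9me3, and they were grouped by their titles: 95.8% (WT) and 92.1% (KO) of their length lay in replicate 1 peaks and 0.476% and 0.447% in H3K9me3 peaks. H3K27me3 islands covered 378 to 499.9 Mb, and least at 40 h. Hepatocyte marker genes had H3K4me3 at 7 or 8 of 8 starts in every library, macrophage markers at 1, 0, 4 and 4 of 5, and endothelial markers at 6 of 6. Stellate markers had it at 4, 4, 4 and 5 of 5, bile duct markers at 3, 3, 2 and 2, and lymphocyte markers at 1, 1, 1 and 2. Summed peak length was 7379, 7098, 12707 and 15709 bp at endothelial markers and 45436, 47504, 33582 and 37988 bp at hepatocyte markers. Whether cell content differed between the replicates was not tested. The start of Uhrf1 carried a peak in all 4 libraries (870 to 1421 bp), which does not test the deletion because the sources used here do not name the deleted exons.

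H3K4me3 was present at the start of nearly every one of these genes in resting liver of both genotypes. A peak touched the window of 1 kb either side of the start of 47 genes in WT1, 47 in KO1, 46 in WT2 and 47 in KO2. Over all protein-coding genes the shares were 63.3%, 62.4%, 56.8% and 59.5%. No member gained a peak in both KO libraries that neither WT library had (0.11% of all genes did), and none lost it in both (0.0183%). The exception was Mybl2, which encodes B-Myb, with 285 bp of peak in WT1, 364 bp in KO1, none in WT2 and 178 bp in KO2. In whole liver, fewer cells that carry a mark and less of it per cell cannot be told apart. For 8 of the genes (Ccna2, Ccne2, Cdc25c, Mcm4, Aurkb, Foxm1, Kif20a and Gmnn) the start was taken as the gene end with more H3K4me3 over the 4 libraries, so their presence of a peak is partly built into the choice.

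A broader list of 137 other genes of the cycle gave 133, 134, 132 and 132 genes with a peak at the start. Of these, 132 were marked in all 4 libraries. The 5 others were Timeless, Ccna1, Ccnb3, Kif2c and Kif14. Ccna1, the germline cyclin A, had 469 and 347 bp in the replicate 1 libraries and none in replicate 2. The starts in the table for Timeless, Kif2c and Kif14 lie 6003, 3852 and 1547 bp from the gene bound, and the nearest peaks were 5200 to 5277, 3332 to 3948 and 1000 to 1637 bp away. Ccnb3, a cyclin of meiosis, had its nearest peak 146697 to 276754 bp away.

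The marked domains were short. The summed length of the peaks touching the window, which is the length used throughout, had a median of 1340 bp in WT1, 1330 bp in KO1, 1023 bp in WT2 and 1155 bp in KO2. Over all genes with a peak the medians were 1710.5, 1685, 1362 and 1490 bp. The median member lay at percentiles 32.6, 32.7, 29.2 and 31.0 of length among marked genes. In these libraries 35, 38, 37 and 39 members lay below the median of all marked genes, 32 of them in all 4. Only Ccne2, Cdk6, Mcm7, Aurka, E2f8 and Kif11 lay above it in all 4. The order of the members was similar between libraries, with Spearman's rho from 0.86 to 0.95 over the 47 genes, which is a description across genes that share the libraries. Length followed the number of CpG in the promoter weakly, with rho of 0.25 over 39 genes.

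The authors' fold enrichment of the highest peak gave less contrast. Its median over the marked members was 19.5 in WT1, 16.6 in KO1, 31.8 in WT2 and 51.5 in KO2, at median percentiles of 49.2, 42.8, 30.3 and 38.1 among all marked genes. Members more often had their mark split into at least 2 peaks: 78.7%, 85.1%, 58.7% and 59.6% of those marked, against 56.8%, 61.3%, 40.5% and 32.9% of all marked genes.

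**Figure D2:**
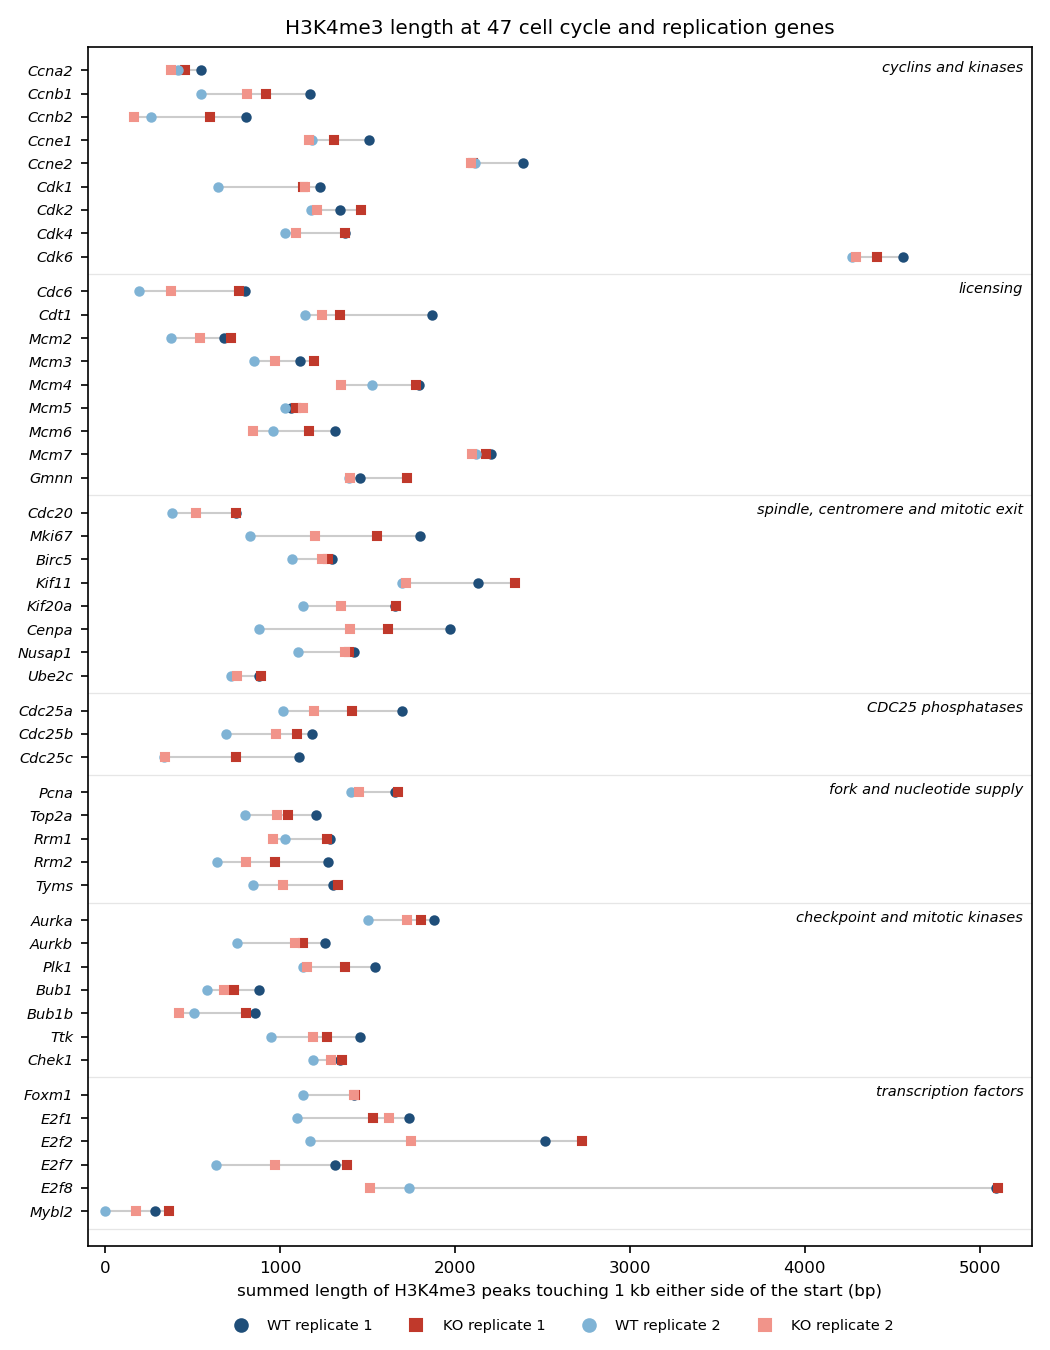
Each row is 1 of the 47 genes, grouped by role, and the points give the summed length in bp of H3K4me3 peaks touching 1 kb either side of the start in the 4 libraries (circles WT, squares KO, dark replicate 1, light replicate 2). Most genes lie around the medians of 1023 to 1340 bp, Cdk6 and the replicate 1 values of E2f8 lie above 4000 bp, and WT2 is the lowest of the 4 points in 37 genes.

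Where the members differed from other genes was mostly downstream of the start. Among the 37 with 1 start in the table, a peak covered the base 1000 bp downstream in 29.7% (WT1), 21.6% (KO1), 5.41% (WT2) and 16.2% (KO2), against 61.7%, 61.5%, 39.3% and 45.8% of 7897 genes with 1 start that were marked in all 4 libraries. At 1000 bp upstream the shares were 18.9%, 13.5%, 8.11% and 10.8%, against 27.2%, 26.8%, 14.1% and 16.3%. The downstream side thus differed more from other genes than the upstream side, in all 4 libraries.

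Coverage was lowest just upstream of the start. The lowest point lay 66, 78, 91 and 75 bp upstream in WT1, KO1, WT2 and KO2, where 29.7%, 24.3%, 24.3% and 32.4% of the members were covered. Among the 7897 genes the lowest point lay at 54, 50, 73 and 82 bp upstream with 48.9%, 43.8%, 48.0% and 59.9% covered. On either side of it coverage of the members reached 94.6%, 91.9%, 73.0% and 78.4% upstream and 97.3%, 100%, 86.5% and 97.3% downstream. Such a trough at active starts is known as the nucleosome-depleted region.

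**Figure D3:**
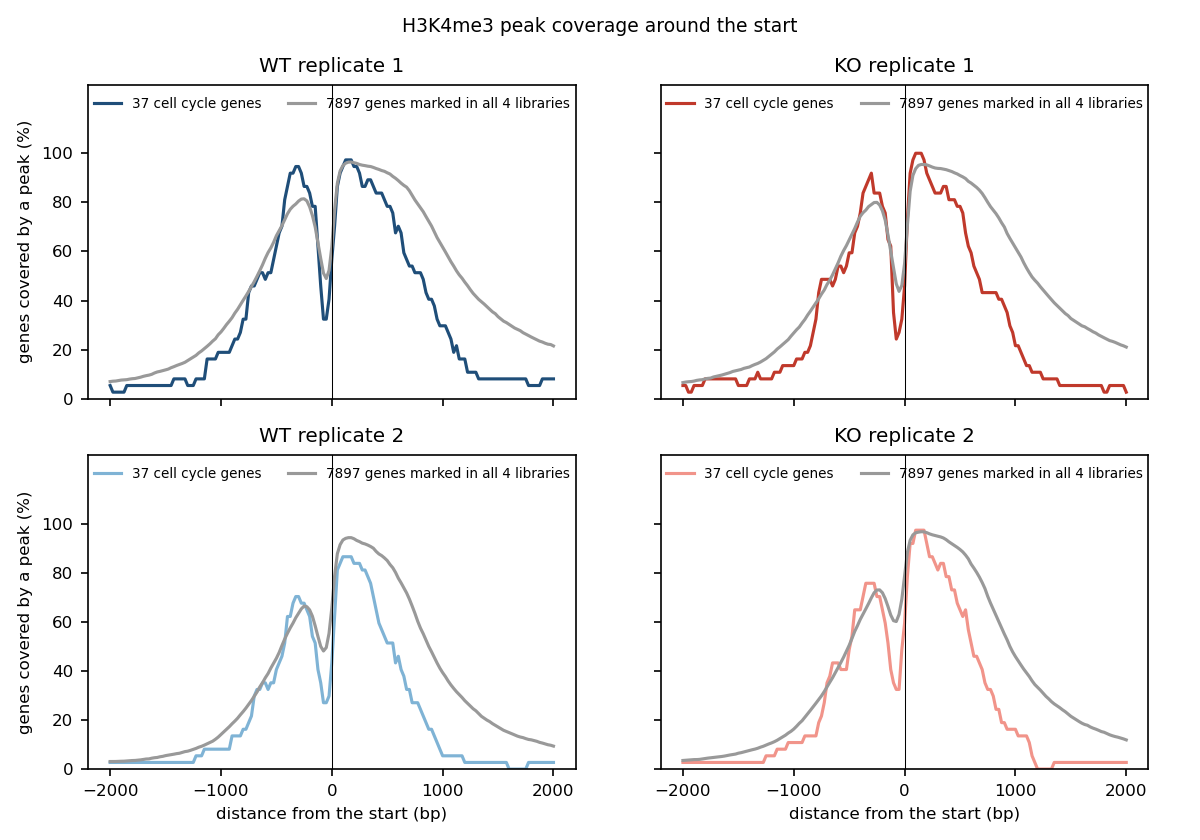
Lines give, for each library, the percent of genes in which an H3K4me3 peak covers the base at each distance from the start, for 37 cell cycle genes (coloured) and 7897 genes marked in all 4 libraries (grey). The cell cycle genes show a lower trough just upstream of the start (24.3% to 32.4% covered) and fall off sooner downstream, to 5.41% to 29.7% at 1000 bp.

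The start itself lay in a gap between flanking peaks in 15, 20, 13 and 9 of the 37 genes (40.5%, 54.1%, 36.1% and 24.3% of those marked, against 30.6%, 36.4%, 20.5% and 12.4% of all marked genes with 1 start). The median gap was 145, 179.5, 180 and 189 bp. Mcm3, Mcm5, Aurka, Bub1 and Rrm1 had this arrangement in all 4 libraries. For Mcm5 the gap began 177 bp upstream and ended 50 bp downstream in WT1, 172 and 53 bp in KO1, 185 and 61 bp in WT2, and 168 and 26 bp in KO2. These bounds hold the overlapping E2F-type words of the Mcm5 sequence above, which begin 153 and 149 bases before the start, and both of its CCAAT boxes, at 77 and 22 bases. For Mcm3 the gap began 204, 218, 239 and 212 bp upstream, before all 3 CCAAT boxes at 117, 72 and 32 bases. It ended 36, 47, 39 and 0 bp downstream. The E2F-type words of Mcm3 begin 19 and 38 bases after the start, and neither lay in the gap in KO2. For Bub1 the gap began 98, 108, 97 and 116 bp upstream, with the CCAAT boxes at 68 and 42 bases inside it. For Aurka it began 82, 86, 91 and 75 bp upstream, with the CCAAT boxes at 51 and 19 bases inside it. For Rrm1 it began 66, 78, 111 and 108 bp upstream. The CCAAT box of Rrm1 at 45 bases lay inside it in all 4 libraries. The box at 91 bases lay inside it in WT2 and KO2 but not in WT1 or KO1.

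Over the 37 genes, 12, 8, 5 and 9 of 56 CCAAT matches touched a peak in WT1, KO1, WT2 and KO2. These are 21.4%, 14.3%, 8.93% and 16.1%, while peaks covered 62.7%, 57.1%, 47.3% and 54.8% of the bases of the same promoters. The 7897 genes showed the same contrast less steeply, with 36.4%, 33.0%, 33.2% and 42.5% of 5190 CCAAT matches in a peak and 66.6%, 62.7%, 60.8% and 70.5% of bases. Of 13 E2F-type matches in the 37 genes 6, 4, 3 and 6 touched a peak (46.2%, 30.8%, 23.1% and 46.2%). Of 23 CHR-type matches 9, 11, 7 and 12 did (39.1%, 47.8%, 30.4% and 52.2%). Both were below the share of bases in all 4 libraries, on few matches. Over the 7897 genes 64.1%, 60.7%, 63.3% and 72.1% of 387 E2F-type matches and 68.5%, 65.9%, 56.4% and 64.7% of 1228 CHR-type matches touched a peak, which is close to the share of bases, unlike CCAAT. In 13 of the 37 genes the start was inside a peak in all 4 libraries, among them Cdk6, Pcna, Top2a, Plk1, E2f1 and Chek1. The positions of CCAAT boxes and of the trough were compared here by overlap alone, and a match is not evidence of a bound factor.

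**Figure D4:**
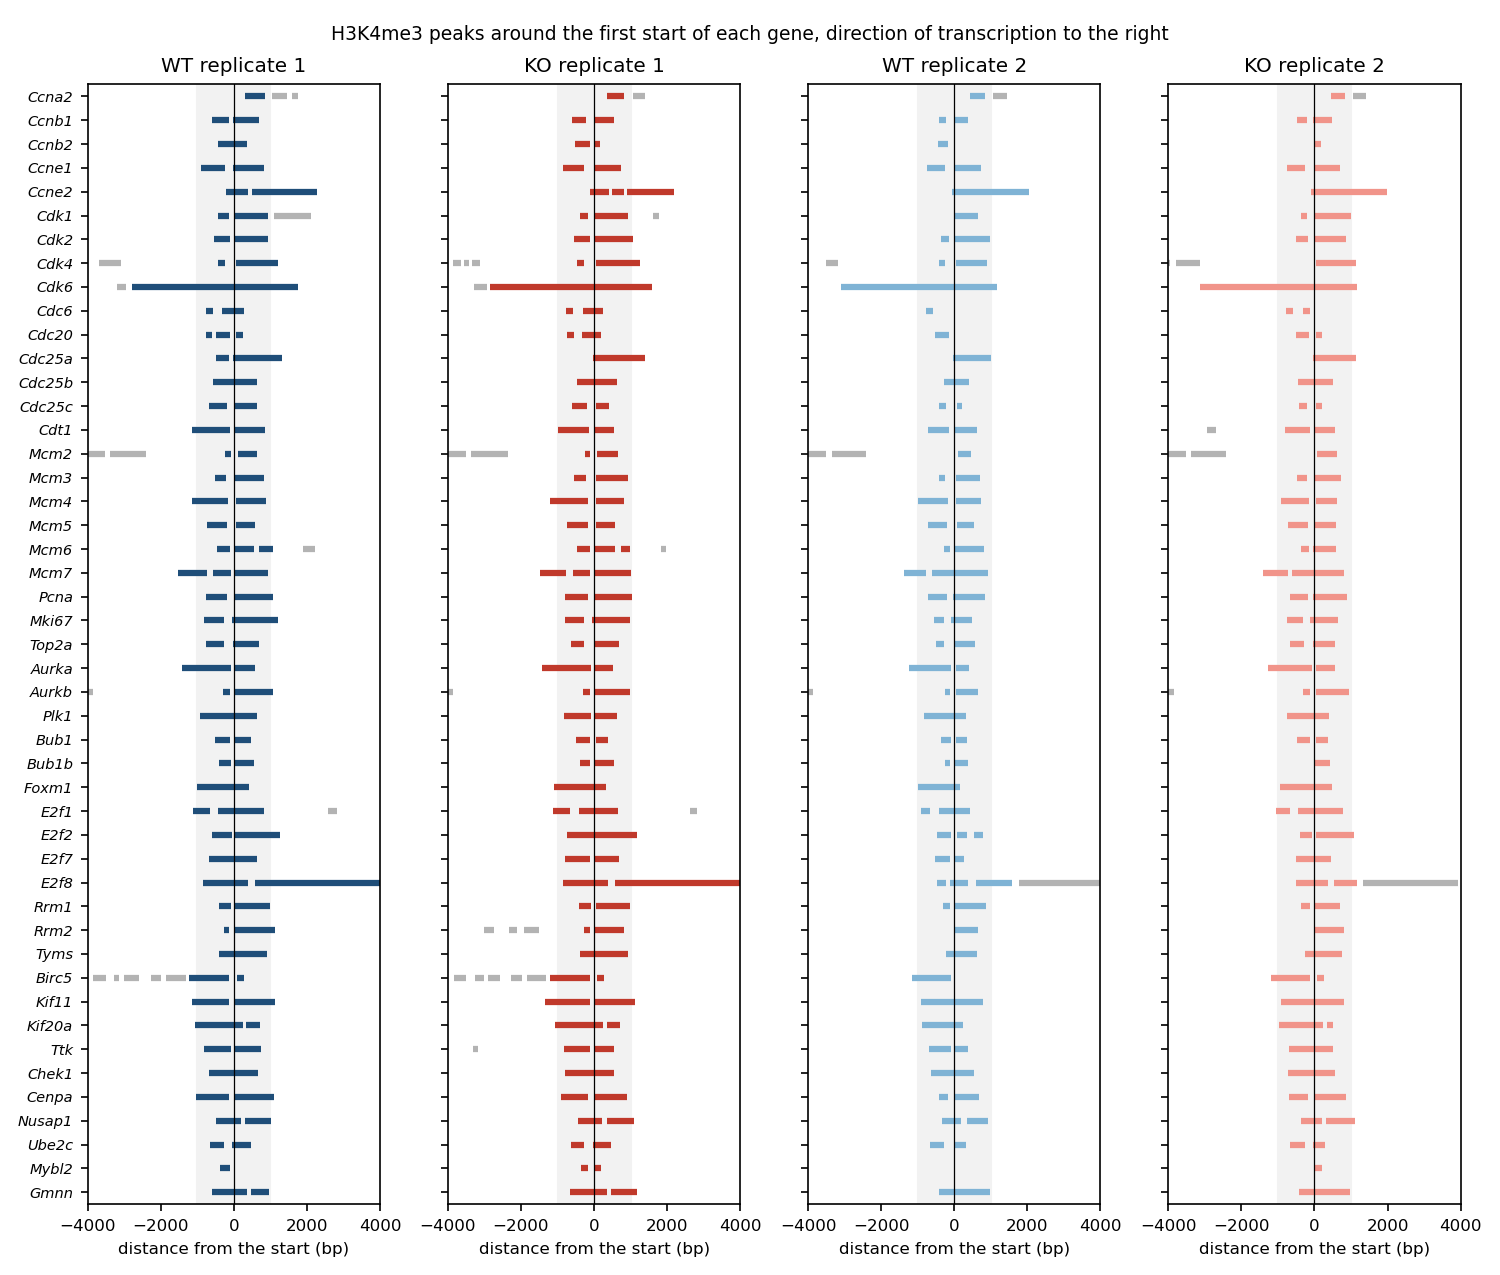
Bars show every H3K4me3 peak within 4000 bp of the first start of each of the 47 genes, with transcription to the right, in 1 panel per library; coloured peaks touch the shaded window of 1 kb either side and grey peaks do not. Most genes carry a pair of peaks around the start, and Cdk6 carries 1 peak of 4273 to 4564 bp. It lies largely upstream of the start used but mostly within the gene bounds.

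Among cyclins and their kinases, Cdk6 stood apart with 1 unbroken peak of 4564 bp in WT1, 4416 bp in KO1, 4273 bp in WT2 and 4293 bp in KO2. It ran from 2801, 2834, 3097 and 3120 bp upstream of the start to 1762, 1581, 1175 and 1172 bp downstream. The start used (chr5:3343893) lies inside the gene bounds, whose 5′ end is chr5:3341004, so most of the upstream stretch is within the gene. A peak lay within 1 kb of that 5′ bound in all 4 libraries. Cdk4, which shares the D cyclins with Cdk6, had 1369, 1374, 1029 and 1091 bp. Ccne2, 1 of the pair of E cyclins that activate Cdk2, had 2391, 2101, 2113 and 2090 bp, and Ccne1 had 1506, 1307, 1183 and 1167 bp. The mitotic cyclins had less: Ccnb1 had 1171, 920, 547 and 811 bp. Ccnb2 had 808, 597, 261 and 162 bp. Ccna2, the cyclin of S phase and G2, had 549, 455, 415 and 377 bp. Its start was taken from the gene end. The next peak of Ccna2, of 394, 330, 365 and 351 bp, began 1054, 1055, 1070 and 1051 bp downstream, outside the window, and was not counted. By the counted length, the E cyclins and Cdk6 were above, and Ccna2 and Ccnb2 below, Ccnb1 in the same library. The place of Ccna2 in this order rests on the border of the window. Cdk1, the partner of the mitotic cyclins, had 1227, 1133, 646 and 1145 bp, with WT2 far below the other libraries.

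The licensing genes load the MCM helicase onto origins before S phase. Mcm7 had the longest mark among them, with 2205 bp in WT1, 2179 bp in KO1, 2120 bp in WT2 and 2100 bp in KO2, counted over both of its starts and including the side of its divergent neighbour Ap4m1. Mcm2 had the shortest of the 6 helicase subunits, with 680, 720, 379 and 542 bp. Mcm3, Mcm4, Mcm5 and Mcm6 lay between them in every library. Cdc6, a loader of the helicase, had 802, 764, 196 and 374 bp, and Cdt1, its partner, had 1866, 1340, 1144 and 1237 bp. Geminin (Gmnn), the inhibitor of Cdt1, had 1456, 1728, 1394 and 1401 bp.

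Genes of the fork and of nucleotide supply had medians of 1285, 1269, 845 and 984 bp, with single values from 639 bp (Rrm2, WT2) to 1673 bp (Pcna, KO1). Pcna, the sliding clamp, had 1656, 1673, 1403 and 1452 bp, the longest of the 5 genes in each library. It was also the only member with a peak within 1 kb of its 3′ gene bound in all 4 libraries. The gene spans 3895 bp. These peaks began 4703, 4691, 4817 and 4786 bp downstream of the start, so they lay beyond the gene. E2f1, Kif20a and Cenpa had a peak within 1 kb of their 3′ bound in both replicate 1 libraries only, and Cdc20 in WT1 only. The share of all genes with such a peak was not counted.

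Of the CDC25 phosphatases, which remove the inhibitory phosphates of the kinases, Cdc25a had 1698, 1411, 1017 and 1192 bp and Cdc25c had 1109, 750, 335 and 342 bp. Cdc25c was the shortest of the 3 in every library. Of the 7 checkpoint and mitotic kinases, Aurka was longest in all 4 libraries (1503 to 1882 bp), and Bub1 and Bub1b, which act in the spindle checkpoint, were the shortest pair (424 to 878 bp). Among spindle and mitotic exit genes the mitotic kinesin Kif11 was longest, with 2134, 2346, 1697 and 1723 bp. Cdc20, an activator of the anaphase-promoting complex, was shortest, with 746, 749, 382 and 522 bp, and Ube2c, the ubiquitin-conjugating enzyme of that complex, had 881, 891, 722 and 755 bp.

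The transcription factors spread from 285 to 5095 bp in WT1 and from 364 to 5106 bp in KO1, and from 0 to 1739 bp in WT2 and 178 to 1749 bp in KO2. E2f8, an atypical E2F that represses transcription, had 5095 bp in WT1 and 5106 bp in KO1, but 1739 bp in WT2 and 1514 bp in KO2. In replicate 1 a peak of 3856 bp (WT) or 3870 bp (KO) began 579 or 563 bp downstream and was counted. In replicate 2 peaks of 2334 and 2595 bp covered much of the same stretch but began 1775 and 1340 bp downstream, outside the window, so the lower value reflects where the peak borders lay. E2f7, the related repressor, had 1316, 1382, 636 and 971 bp, and E2f1, an activator, had 1738, 1532, 1098 and 1625 bp. E2f2, also an activator, had 2516, 2725, 1169 and 1749 bp summed over its 2 starts. These (chr4:136172274 and chr4:136180782) have separate windows, so its values do not compare directly with those of genes with 1 start. Foxm1, which drives mitotic genes, had 1421, 1430, 1133 and 1423 bp.

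KO and WT lengths were then compared. The libraries did not separate by genotype: among the 46 members marked in all 4, the ranges of the 2 WT and the 2 KO libraries overlapped for 43. Mcm5 (1064 and 1029 bp in WT, 1092 and 1133 bp in KO) and Foxm1 were longer in both KO libraries, by margins of 28 and 2 bp between the nearest values, and 5.65% of all marked genes behaved so. Ccne2 was shorter in both, by a margin of 12 bp, against 0.904% of all marked genes. These margins are small beside the difference between libraries of 1 genotype, since the WT medians were 1340 and 1023 bp. Whether they exceed sampling noise cannot be read from peak lists, which hold no counts per promoter.

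The sign of the difference depended on the replicate. In replicate 1, KO minus WT had a median of -44 bp, with 17 members longer and 29 shorter in KO. In replicate 2 it was 113 bp, with 36 longer and 10 shorter. All marked genes had the same signs, with medians of -30 and 146 bp and with 42.0% and 83.6% of 12272 genes longer in KO. WT1 held the longest of the 4 values in 29 members and WT2 the shortest in 37. By the mean of the replicates, the differences (KO minus WT) farthest above 0 were those of E2f2 (394.5 bp, summed over 2 separate starts), Cdk1 (202.5 bp) and E2f7 (200.5 bp). The farthest below were those of Cdt1 (-216.5 bp), Cdc25c (-176 bp) and Ccne2 (-156.5 bp). For E2f2, Cdk1, E2f7, Cdt1 and Cdc25c the values of WT and KO overlapped. With 2 libraries against 2, an exact two-sided permutation test cannot go below p = 0.333, and none was run.

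H3K27me3 was nearly absent from these starts. An island, a broad stretch of enrichment called by the authors with SICER and kept here at a false discovery rate of 0.01 or below, lay within 1 kb of the start of 1 member in WT replicate 1, 2 in KO and 2 at 0 h. The background over all genes was 21.7%, 22.4% and 26.9%. In regenerating WT liver 0 members had one at 30 h, 0 at 40 h and 1 at 96 h, against 17%, 16.5% and 24.1% of all genes. Genes with H3K4me3 in all 4 libraries form a closer comparison, and 10.2%, 10.1%, 13.6%, 5.99%, 5.88% and 11.9% of them had an island at the start in the same order. The members were below this comparison in every library, and both were lowest at 30 and 40 h. The counts of the members rest on Bub1 and E2f7 alone. Islands covered 417 Mb at 30 h and 378 Mb at 40 h, against 483 Mb at 0 h, 459 Mb at 96 h and 417 Mb in WT replicate 1, and the part of list size in the counts was not tested. The lists of 30, 40 and 96 h used 1 control library and that of 0 h another, as read from the control counts of islands with equal bounds, and WT replicate 1 and KO shared another again.

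Bub1, a kinase of the spindle checkpoint, and E2f7 were the only members with an island at the start. At Bub1 (chr2:127800197-127831859, minus strand, GRCm38) the island was chr2:127830001-127889000 in WT replicate 1, chr2:127830001-127868000 in KO and chr2:127830001-127941000 at 0 h. It came from upstream, lay over the neighbouring gene Acoxl and crossed the start by 1858 bp in all 3 libraries, at the authors' folds of 2.13, 2.03 and 1.75. In the regenerating libraries an island over Acoxl was again called, but stopped 1142 bp upstream of the start at 30 h, 2142 bp at 40 h and 1142 bp at 96 h. Islands are built from windows of 1000 bp, so this shift of the border is one of a few windows.

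At E2f7 (chr10:110745439-110787384, plus strand) the island was chr10:110734001-110749000 in KO, chr10:110734001-110750000 at 0 h and chr10:110734001-110747000 at 96 h, with folds of 1.85, 1.77 and 1.97. It began 11438 bp upstream in each and overlapped no other protein-coding gene. No island lay near the start in WT replicate 1 (the nearest was 271439 bp away), at 30 h (58562 bp) or at 40 h (102562 bp). The baseline WT libraries thus differed from each other at E2f7, and KO matched 1 of the 2. H3K4me3 lay at the same start in all 4 libraries, in whole liver, where marks of different cells are summed.

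Within the gene bounds, islands lay in 1 member in WT replicate 1, 3 in KO, 7 at 0 h, 0 at 30 h, 4 at 40 h and 1 at 96 h, against 24.6%, 26%, 29.9%, 22.4%, 22.1% and 27.4% of all genes. Of the genes with H3K4me3 in all 4 libraries, 12.1%, 12.7%, 16.1%, 10.5%, 10.6% and 13.8% had one. The members, at 2.13%, 6.38%, 14.9%, 0%, 8.51% and 2.13%, were near that share at 0 and 40 h. Islands touched 11 members in all, and 36 had none in the gene or at the start in any library. In 8 of the 11 the island was called in a single library: Cdc25c, Plk1, E2f1 and Mybl2 at 0 h, Mki67, Top2a and Bub1b at 40 h, and Foxm1 in KO. Mcm2 had one at 0 and 40 h, at the end away from its start and shared with Podxl2. The islands at 40 h covered 49.6% of Mki67, the gene of the Ki-67 proliferation antigen, 47.5% of Bub1b and 9.77% of Top2a, and began 13379, 22790 and 28189 bp downstream of the start, at folds of 1.32, 1.40 and 1.65. Among all islands of the 40 h list these folds lay at percentiles 17.3, 35.8 and 86.6.

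**Figure D5:**
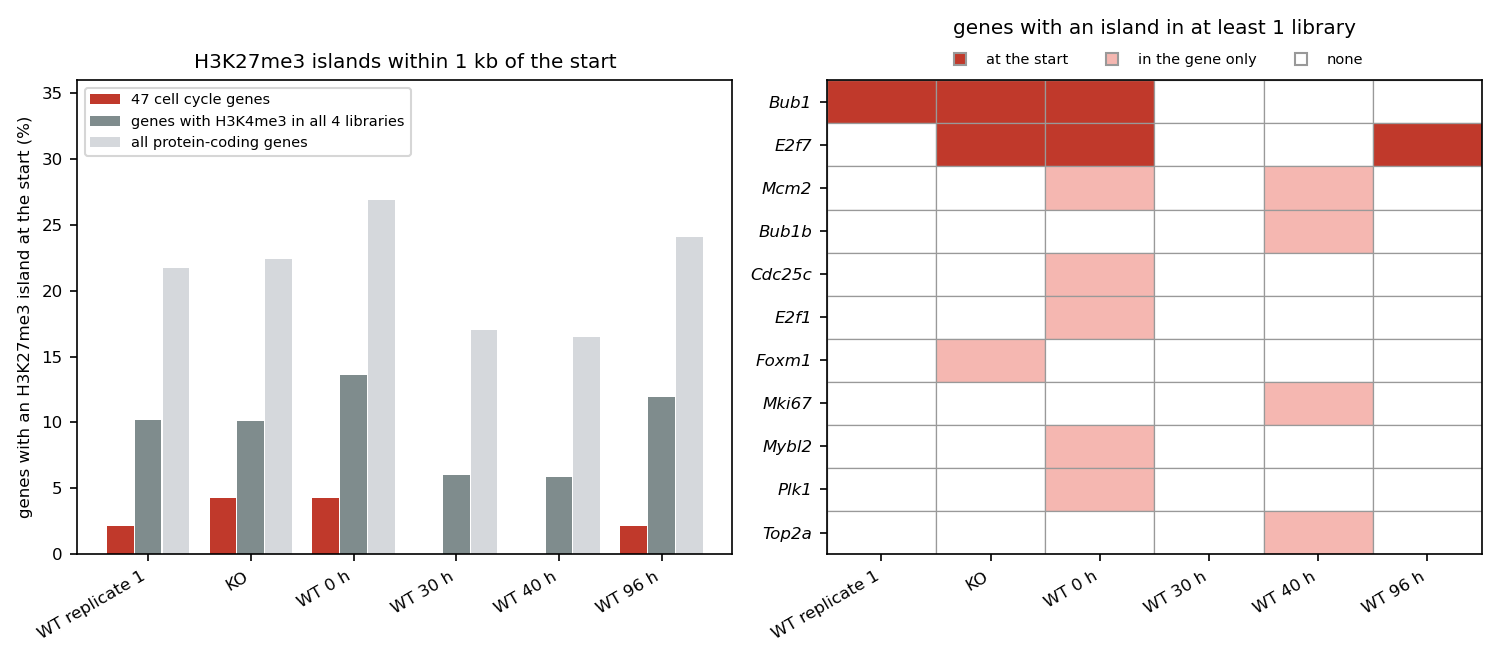
The bars give the percent of genes with an H3K27me3 island within 1 kb of the start in 6 libraries, for the 47 cell cycle genes, genes with H3K4me3 in all 4 libraries and all protein-coding genes; the grid shows the 11 cell cycle genes with an island in any library. The cell cycle genes stay between 0% and 4.26% where all genes reach 16.5% to 26.9%, and in the grid only Bub1 and E2f7 have an island at the start.

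Of the 137 other genes of the cycle, 6, 9, 8, 8, 5 and 7 had an island at the start in WT replicate 1, KO, 0 h, 30 h, 40 h and 96 h, which are 13 different genes. E2f6, a repressive E2F, Racgap1, a gene of cytokinesis, and Ccna1 had one in all 6 libraries. E2f6 and Racgap1 also had H3K4me3 in all 4 libraries (962 to 1148 bp and 596 to 1003 bp), and Ccna1 lacked it in replicate 2.

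No H3K9me3 peak was called at any of these starts. A broad peak lay in the gene or within 1 kb of it for 3 members in WT and the same 3 in KO, E2f7, Tyms and Kif20a, against 22% and 22.5% of all genes. At the start 0 members had one in either, against 1.89% and 1.91% of all genes, a share too low for a count of 0 among 47 genes to stand apart from it. In Tyms, which makes thymidylate, the peaks held 9302 bases (WT) and 8770 bases (KO) of the gene, beginning 13643 and 13588 bp from the start. In E2f7 they held 13.3% and 8.87% of the gene, beginning 6983 and 6945 bp from it. In Kif20a, a kinesin of cytokinesis, 1 peak of 2130 bp in WT and 2352 bp in KO lay at the 3′ end of the gene, 7178 and 7152 bp from the start, where both replicate 1 H3K4me3 libraries also had a peak. The values of the genotypes lay close together, with 1 library each and no replicate to give their spread. These broad peaks had q-values above 1e-05. The authors' narrow H3K9me3 lists also held peaks in the same 3 genes, and there the highest −log10 q was 19.2 (WT) and 11.0 (KO) at Kif20a, with folds up to 9.65 and 7.13, 9.01 and 8.23 at Tyms, with folds up to 6.43 and 6.15, and 4.26 and 2.94 at E2f7.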

How the data were processed

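ChIP-seq region lists of 12 libraries were used, while the 3 input samples served only in the authors' calling. Per the submitters' processing notes, reads were handled with FastQC 0.11.5, Trimmomatic, BWA, Picard, MACS2 and SICER on GRCm38.p4 or mm10. The sources used here state no other setting. The authors called regions in each library by itself. The deposited H3K4me3 (narrow) and H3K9me3 (broad and narrow) peaks carry a score, a fold, and p-value and q-value columns as −log10. The deposited H3K27me3 islands (window 1000 bp, gap 4000 bp, per the file names) carry raw ChIP and control read counts, a p-value, a fold and the false discovery rate. The lists of WT replicate 1 and KO hold the same columns without a header.

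Lists were matched to RefSeq genes of GRCm38.p6 on chromosomes 1 to 19, X and Y. Starts came from the RefSeq promoter table for 17492 of 21887 genes. For 2815 genes without an entry the gene end with more H3K4me3 over the 4 libraries was used, and for 1580 both ends. A call needed 1 bp of overlap with the window of 1 kb either side. Lengths are those of whole peaks touching the window. H3K27me3 islands above a false discovery rate of 0.01 were left out.

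The lists give no counts per promoter, so no test between groups was run. Members were described by their values and counts beside those of all genes. Depth per library is not given in the lists, apart from the reads in islands and the ratio of ChIP to control depth that the island folds imply. The members, the list of 137 other genes and the motif words were chosen with earlier results of these data known. The rule named, with values in every library, genes without a peak in any 1 library, genes with an H3K27me3 island or H3K9me3 peak, the 5 longest and 5 shortest by the median, and the 3 largest differences in each direction. The other members whose lengths are printed were chosen by role after their values were seen. Cell type markers were 8 hepatocyte, 6 endothelial, 5 macrophage, 5 stellate, 5 bile duct and 5 lymphocyte genes. The comparison with genes marked in all 4 libraries, the coverage by distance and the overlap of motifs with peaks were added after seeing the data. The overlap code was tested on simulated regions. Work was done in Python 3.11.15 (matplotlib 3.10.9, scipy 1.17.1, numpy 2.4.6, pandas 2.3.3).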

Additional observations from a re-analysis of the deposited data

Results flagged for a closer look

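The median difference in H3K4me3 length between KO and WT over the 46 members marked in all 4 libraries had opposite signs in the replicates, -44 bp in replicate 1 and 113 bp in replicate 2. Each replicate has 1 library per genotype, and the difference between the replicates was not tested. All marked genes showed the same signs, with medians of -30 and 146 bp.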

How the results depend on the processing

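Counts of members with H3K4me3 at the start moved little under the 5 alternatives tried, and ranged from 44 to 47. Of these, 1 took the gene end with more H3K4me3 as the start of every member. Its counts of 47, 47, 46 and 47 are partly built into that choice. Taking the widest peak in place of the sum gave median lengths of 975, 915, 675.5 and 880 bp in WT1, KO1, WT2 and KO2, and a window of 250 bp gave 1165 bp in KO1. The median difference between KO and WT kept its sign in each replicate under all 6 alternatives, from -52 to -6 bp and from 51 to 122 bp. Members longer in both KO libraries numbered 4 with the widest peak and 4 with the 25000 peaks of highest fold. Leaving out 1 library gave 2 to 36, with 36 without WT replicate 1 and 17 without KO replicate 2. Members shorter in both numbered 0 with the widest peak, with the length inside the window and with a window of 250 bp. Leaving out 1 library gave 1 to 29, with 29 without WT replicate 2 and 10 without KO replicate 1.

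Islands of a fold of 2 or more left 1 member in KO, 0 at 0 h and 0 at 96 h. A window of 5 kb gave 4, 2, 3 and 5 members at 0, 30, 40 and 96 h, and any base of the gene gave 7 at 0 h and 4 at 40 h. Counted over both baseline WT libraries, 2 members had an island at the start, with a range of 1 to 2 when either was left out. Of the broad H3K9me3 peaks, those with q-values no higher than 1e-05 touched 0 members of either genotype, and broad peaks touched 0 at the start only, while narrow peaks at Kif20a and Tyms passed that q-value. The cause of these differences was not tested. The differences within each replicate pair the WT and KO libraries of 1 replicate number, of which only replicate 2 carries a round label. With 2 pairs they were given as values with no test. Peak lists limit precision, since a start without a peak may hold a signal under the authors' threshold.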
